A study of Mus musculus with 66 samples.

Results

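Tinagl1, Klhdc8a, Gjb2 and Cldn1 are 4 genes of the 11513 that share all tables of a time course of MycER activation in mouse fibroblasts. They were selected on measured values, as genes with some of the largest falls after 16 h of treatment. The levels at 16 h and at 0 min are therefore described without a test, and every test below uses the other 9 times. The cells were 3T9MycER fibroblasts, a single line of mouse embryonic fibroblasts (E13.5) of genotype c-myc flox/flox that carries a MycER construct from a pBabe bleomycin retrovirus. MycER joins the transcription factor Myc to a hormone-binding domain of the oestrogen receptor, and 4-hydroxytamoxifen (OHT) activates it. Cells received 400 nM OHT for 10, 20 or 30 min or for 1, 1.5, 2, 4, 8, 12 or 16 h, and the 0 min cells carry no OHT in their labels. No series without OHT runs alongside these times, so the effect of OHT and that of time in culture cannot be told apart. Each time had 3 libraries of labelled RNA and 3 of total RNA, which gave 66 libraries. Labelled RNA was made during a 10 min pulse of 300 µM 4-thiouridine (4sU), a uridine analogue that allows newly made RNA to be pulled down. No label names separate cultures, so the p-values measure the spread between libraries, which may be technical.

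The genes code for proteins of the matrix, of cell junctions and of protein binding. Tinagl1 encodes a secreted glycoprotein of the extracellular matrix and basement membranes that binds laminins and integrins. Cldn1 encodes claudin-1, a membrane protein of the tight junction strands that seal epithelial sheets. Gjb2 encodes connexin 26, a subunit of the gap junction channels through which neighbouring cells exchange ions and small molecules. Klhdc8a encodes a protein of kelch repeats, which fold into a propeller that holds other proteins. Myc binds DNA with its partner Max, with a preference for the E-box motif CACGTG, and both raises and lowers the RNA of many genes in fibroblasts.

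Tinagl1 (Entrez 94242) lies on chromosome 4 from 129841698 to 129852366 on the minus strand of mm9, in 14 merged exons of the GENCODE M1 annotation. Klhdc8a (Entrez 213417) lies on chromosome 1 from 134195203 to 134203934 on the plus strand, in 5 exons. Gjb2 (Entrez 14619) lies on chromosome 14 from 57717437 to 57723539 on the minus strand, in 2 exons. Cldn1 (Entrez 12737) lies on chromosome 16 from 26356728 to 26371927 on the minus strand, in 4 exons. No other annotated gene overlapped any of the 4 on either strand, which matters because no source used here states whether the counting used strand.

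The promoter windows of the 4 genes are shown because the genes fell together. They come from RefSeq (GRCm38.p6), run 5′ to 3′ from 250 bases before to 50 bases after an annotated start, and all 4 genes had an entry, with 2 starts for Tinagl1. Capitals mark matches on either strand to 6 motifs. CACGTG is the E-box, and TGANTCA, with any base at N, is a looser form of the site known for AP-1 factors. GGAATG is known for TEAD factors, TATAAA is the TATA box, GGGCGG is known for Sp1 and the CArG box is known for SRF.
Tinagl1, window a, chr4:130175073-130175372, minus strand: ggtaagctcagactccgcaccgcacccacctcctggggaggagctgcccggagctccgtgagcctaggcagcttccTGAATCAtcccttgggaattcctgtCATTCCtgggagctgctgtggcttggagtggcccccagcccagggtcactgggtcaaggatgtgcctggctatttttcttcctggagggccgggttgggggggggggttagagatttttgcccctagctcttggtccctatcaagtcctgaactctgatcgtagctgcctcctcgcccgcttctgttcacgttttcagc
Tinagl1, window b, chr4:130174753-130175052, minus strand: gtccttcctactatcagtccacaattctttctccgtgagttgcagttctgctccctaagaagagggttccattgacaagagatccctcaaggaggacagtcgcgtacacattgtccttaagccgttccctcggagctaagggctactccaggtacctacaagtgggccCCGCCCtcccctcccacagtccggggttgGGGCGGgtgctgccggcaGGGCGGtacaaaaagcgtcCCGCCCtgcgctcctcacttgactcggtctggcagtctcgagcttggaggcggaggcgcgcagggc
Klhdc8a, chr1:132298376-132298675, plus strand: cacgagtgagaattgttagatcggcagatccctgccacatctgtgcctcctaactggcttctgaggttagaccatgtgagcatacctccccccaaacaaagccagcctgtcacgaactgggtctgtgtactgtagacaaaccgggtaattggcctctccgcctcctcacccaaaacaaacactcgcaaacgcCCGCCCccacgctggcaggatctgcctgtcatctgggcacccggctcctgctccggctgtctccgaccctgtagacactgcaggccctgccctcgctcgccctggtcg
Gjb2, chr14:57104653-57104952, minus strand: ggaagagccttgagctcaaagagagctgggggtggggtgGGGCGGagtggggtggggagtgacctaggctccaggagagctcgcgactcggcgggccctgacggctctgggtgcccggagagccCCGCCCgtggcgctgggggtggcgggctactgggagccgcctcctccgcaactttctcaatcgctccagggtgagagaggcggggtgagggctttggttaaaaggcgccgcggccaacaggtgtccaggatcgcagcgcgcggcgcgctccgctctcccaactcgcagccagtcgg
Cldn1, chr16:26371790-26372089, minus strand: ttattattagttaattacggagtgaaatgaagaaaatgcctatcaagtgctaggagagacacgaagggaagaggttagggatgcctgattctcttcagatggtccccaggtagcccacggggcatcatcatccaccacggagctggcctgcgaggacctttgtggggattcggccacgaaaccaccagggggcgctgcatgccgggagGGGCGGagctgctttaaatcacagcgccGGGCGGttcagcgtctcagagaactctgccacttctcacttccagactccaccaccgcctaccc

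GGGCGG was found in 4 of the 5 windows, at least once for each gene, and 35.7% of all 32851 RefSeq mouse windows of this length hold it. The upstream window of Tinagl1 (window a) held 1 match to TGANTCA, which 7.81% of all windows hold, and 1 to GGAATG, which 14.7% hold. CACGTG matched in 0 of the 5 windows and in 7.15% of all windows. TATAAA (13.6% of all windows) and the CArG box (1.63%) had no match in the 5 windows either. The matches did not overlap each other. GC content was lowest in the Cldn1 window, at 56.0%.

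Values below are the authors' whole-number tables after scaling each library (scaled values), and RPKM where levels of different genes are compared. At 10 min in total RNA, Tinagl1 had the highest exon level per length with 31.1 ± 4.59 RPKM (SD, n = 3). Cldn1 had 12.7 ± 0.25 RPKM, Klhdc8a 10.7 ± 1.13 RPKM and Gjb2 2.01 ± 0.284 RPKM. In labelled RNA at 10 min, Tinagl1 was again highest at 6.06 ± 0.33 RPKM, Cldn1 (2.98 ± 0.293) and Klhdc8a (2.95 ± 0.302) lay within each other's spread, and Gjb2 was at 0.421 ± 0.158 RPKM. At 12 h in total RNA, Tinagl1 stood at 6.09 ± 0.524 RPKM and Gjb2 at 0.995 ± 0.486 RPKM, while Cldn1 (2.78 ± 0.831) and Klhdc8a (2.59 ± 0.338) again lay within each other's spread. The quotient of labelled over total RPKM at 10 min was low for all 4 genes: 0.195 for Tinagl1, 0.209 for Gjb2, 0.235 for Cldn1 and 0.276 for Klhdc8a, against a median of 0.392 over 11031 genes. These quotients lay at the percentiles 5.73, 8.84, 15.1 and 25.2, and since the 2 kinds of table were scaled separately, only the order of genes can be read from them.

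**Figure D1:**
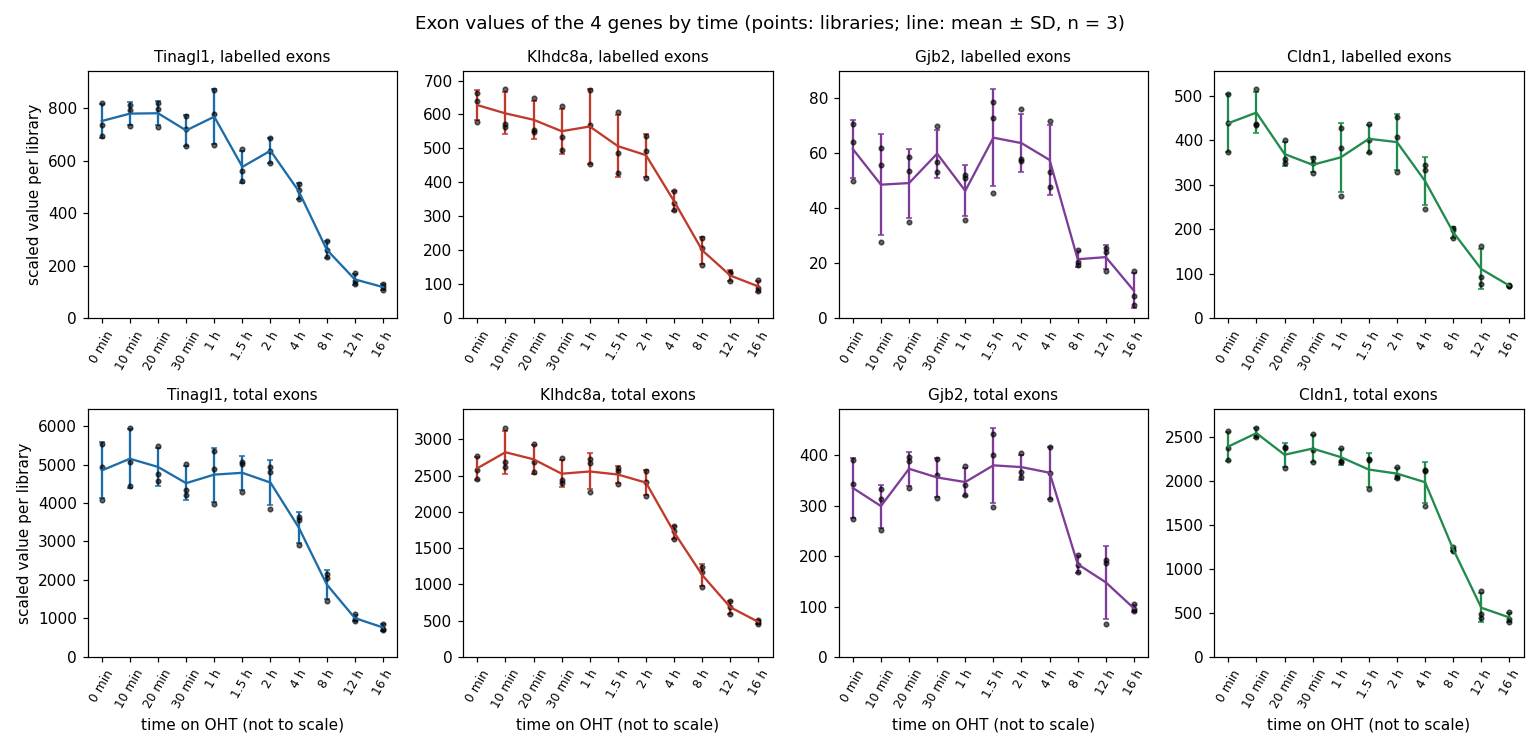
Scaled exon values of Tinagl1, Klhdc8a, Gjb2 and Cldn1 (columns) in labelled RNA (top row) and total RNA (bottom row) against time on OHT, which is not drawn to scale. Points are libraries and lines join means with SD (n = 3); all 4 genes end well below where they began, and Gjb2 keeps its level through 4 h.

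The description of the end points is as follows. In labelled exons the 3 libraries of Tinagl1 had 129.7, 119 and 109 at 16 h, against 737, 696 and 822 at 0 min. Klhdc8a had 112, 90.2 and 79.6 at 16 h, against 579, 664 and 639.7 at 0 min. Cldn1 had 73.3, 75.2 and 72.0 at 16 h, against 373, 504 and 439 at 0 min. Gjb2, the lowest of the 4, had 4.95, 8.02 and 17.1 at 16 h, against 63.8, 70.5 and 49.9 at 0 min. No library at 16 h reached the range of its gene at 0 min, and the genes were chosen for their large falls at 16 h. The log2 differences in labelled exons were -2.74 for Klhdc8a, -2.65 for Tinagl1, -2.64 for Gjb2 and -2.55 for Cldn1. In total exons they were -2.66 for Tinagl1, -2.43 for Klhdc8a and -2.42 for Cldn1, while Gjb2 was at -1.78. Among genes with a mean of at least 50 at 0 min and groups that did not overlap, the 4 genes were the 1st, 3rd, 4th and 5th in labelled exons. Tgfb1i1, which encodes a focal adhesion adaptor, is no member but stood 2nd there at -2.66, and Chst1, a sulfotransferase gene, followed the 4 genes at -2.41. In total exons Tgfb1i1 (-2.56), Etv1 (-2.54), which encodes an ETS factor, and Arntl (-2.51), a gene of the circadian clock, fell by more than Klhdc8a, and Gjb2 was only the 50th of 3602.

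Between 10 min and 12 h, times other than the 16 h and 0 min of the choice, all 4 genes fell in labelled and in total exons. On the fitted scale, 19.0% of the labelled 10 min level was left for Tinagl1, 21.0% for Klhdc8a, 23.0% for Cldn1 and 48.9% for Gjb2. In labelled exons Tinagl1 had 172, 142 and 131 at 12 h, against 792, 814 and 732 at 10 min. Its log2 change was -2.39 ± 0.11 (SE, limma adjusted p = 3.21e-17), the 10th largest fall of 11477 genes tested. Klhdc8a had 137, 132.5 and 109 at 12 h, against 573, 675 and 562 at 10 min, a change of -2.25 ± 0.15 (limma adjusted p = 9.09e-14). Neither gene's groups overlapped. Cldn1 had 162, 92.9 and 77.3 at 12 h, against 437, 516 and 435 at 10 min, a change of -2.12 ± 0.18 (limma adjusted p = 2.25e-11). Its first library at 12 h was higher than the other 2, and still below every library at 10 min. Gjb2 had 17.2, 24.0 and 25.4 at 12 h, against 61.9, 55.7 and 27.8 at 10 min, a change of -1.03 ± 0.27 (limma adjusted p = 0.00215) that ranked 426th. Its groups did not overlap, though the third library at 10 min came close to the 12 h libraries. In this comparison 23.2% of all genes tested passed the threshold of an adjusted p under 0.05 as lower and 24.4% as higher, and the median change of all genes was 0.01. In these bulk samples, fewer cells that express a gene and less of its RNA per cell cannot be told apart.

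All 4 genes also fell in total exons at 12 h. Tinagl1 had 1105, 984 and 937 at 12 h, against 5054, 5960.0 and 4438 at 10 min, a log2 change of -2.34 ± 0.14 (limma adjusted p = 1.07e-12). Cldn1 had 748.5, 482 and 442 at 12 h, against 2500.0, 2515 and 2602 at 10 min, a change of -2.22 ± 0.12 (limma adjusted p = 1.79e-13). Klhdc8a had 593, 687 and 773 at 12 h, against 2615, 3162 and 2688 at 10 min, a change of -2.05 ± 0.10 (limma adjusted p = 3.42e-14). For these 3 genes every 12 h library lay far below every 10 min library. Gjb2 had 64.5, 186 and 193 at 12 h, against 333, 313 and 251.5 at 10 min, a change of -1.16 ± 0.25 (limma adjusted p = 0.000329). Its first library at 12 h stood apart from the other 2, and without it the change was -0.65 (limma adjusted p = 0.00101). Of all genes tested in total exons, 30.1% passed as lower and 27.2% as higher. Whether the fall differed between labelled and total RNA was tested as an interaction over 54 libraries. The fit took these libraries as independent, and no label says whether labelled and total RNA came from the same cells. The difference, labelled minus total, was -0.05 ± 0.18 for Tinagl1, -0.21 ± 0.19 for Klhdc8a, 0.13 ± 0.37 for Gjb2 and 0.10 ± 0.23 for Cldn1. None of the 4 passed (limma adjusted p from 0.722 to 0.95, and 0 of the 4 at an unadjusted p under 0.05), in a test that called 0.892% of all genes in either direction.

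**Figure D2:**
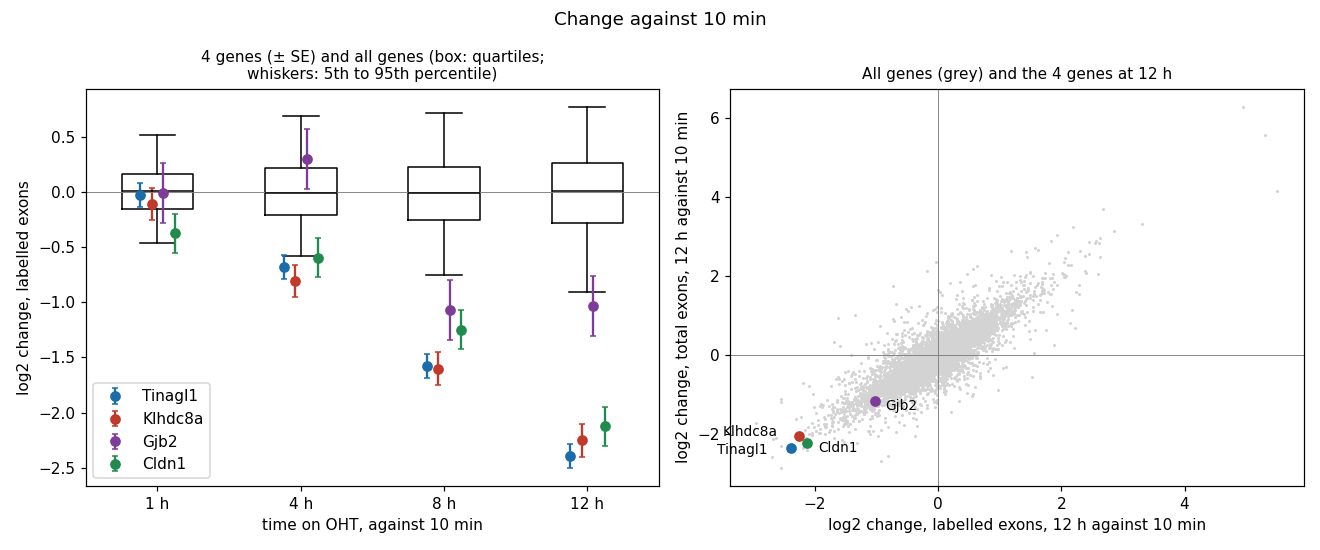
Left, log2 change in labelled exons at 1, 4, 8 and 12 h against 10 min for the 4 genes (points, ± SE) over the distribution of all genes tested (boxes are quartiles, whiskers the 5th and 95th percentiles). Right, each gene's log2 change at 12 h in total exons against that in labelled exons; Tinagl1, Klhdc8a and Cldn1 lie at the lower left edge of all genes, and Gjb2 between them and the centre.

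The 4 genes first passed the test at different times, and differences between genes were not tested. At 1 h none of them passed the test in labelled exons, with log2 changes of -0.03 ± 0.11 for Tinagl1, -0.11 ± 0.15 for Klhdc8a, -0.01 ± 0.27 for Gjb2 and -0.37 ± 0.18 for Cldn1 (limma adjusted p from 0.145 to 0.991, with 7.68% of all genes lower). None passed in total exons at 1 h either, with changes of -0.12 ± 0.14, -0.14 ± 0.10, 0.22 ± 0.25 and -0.16 ± 0.12 in the same order of genes (limma adjusted p from 0.468 to 0.693, 3.21% of all genes lower). At an unadjusted limma p under 0.05 the count was 1 of 4 in labelled exons (Cldn1) and 0 of 4 in total exons.

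At 4 h Tinagl1 and Klhdc8a were lower in both kinds of RNA. In labelled exons Tinagl1 had 512.5, 453.5 and 489 at 4 h, against 792, 814 and 732 at 10 min, a log2 change of -0.68 ± 0.11 (limma adjusted p = 8.22e-06). Klhdc8a had 318, 376 and 339.7 at 4 h, against 573, 675 and 562 at 10 min, a change of -0.80 ± 0.15 (limma adjusted p = 5.79e-05). In total exons the changes were -0.61 ± 0.14 for Tinagl1 (limma adjusted p = 0.00121) and -0.71 ± 0.10 for Klhdc8a (limma adjusted p = 4.31e-06). Cldn1 was lower by a smaller and less secure margin, with -0.59 ± 0.18 in labelled exons (limma adjusted p = 0.00876) and -0.36 ± 0.12 in total exons (limma adjusted p = 0.0189). The labelled call was lost against the mean of 10, 20 and 30 min (-0.35, limma adjusted p = 0.0604), without the second 10 min library (0.0511 in limma) and without the first 4 h library (0.0799 in limma). The call in total exons was lost without the third 10 min library (limma adjusted p = 0.0518) and without the first 4 h library (limma adjusted p = 0.124). Gjb2 had 47.6, 53.1 and 71.6 at 4 h in labelled exons, against 61.9, 55.7 and 27.8 at 10 min, and the groups overlapped. Its changes were 0.30 ± 0.27 in labelled and 0.29 ± 0.25 in total exons (limma adjusted p = 0.432 and 0.386). At 4 h, 16.8% of all genes were lower in labelled exons and 19.8% in total exons.

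At 8 h all 4 genes were lower than at 10 min in labelled exons, by log2 changes of -1.60 ± 0.15 for Klhdc8a, -1.58 ± 0.11 for Tinagl1, -1.25 ± 0.18 for Cldn1 and -1.07 ± 0.27 for Gjb2 (limma adjusted p at most 0.0018, 21.4% of all genes lower). In total exons the changes at 8 h were -1.46 ± 0.14 for Tinagl1, -1.33 ± 0.10 for Klhdc8a and -1.06 ± 0.12 for Cldn1 (limma adjusted p at most 9.24e-08, 26.1% of all genes lower). Gjb2 in total exons changed by -0.69 ± 0.25 (limma adjusted p = 0.0236), a call that was lost when the first or second 10 min library or the second or the third 8 h library was left out (limma adjusted p from 0.0525 to 0.0806). The comparisons with 10 min share the 10 min libraries, so their values are not independent of each other.

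Gjb2 had not passed at 4 h. The step from 4 h to 8 h, a contrast chosen after its values were seen, does not use the 10 min libraries. In labelled exons Gjb2 had 24.7, 19.3 and 20.3 at 8 h, against 47.6, 53.1 and 71.6 at 4 h. Its log2 change was -1.37 ± 0.27 (limma adjusted p = 0.00524), the 8th largest fall of all genes over this step, in which 1.57% of genes were lower. The 180 genes behind this share numbered 69 with no further scaling, and 75 to 153 when a library was left out. The other 3 genes also fell over this step, with log2 changes of -0.89 ± 0.11 for Tinagl1 (limma adjusted p = 1.07e-05), -0.80 ± 0.15 for Klhdc8a (0.00265 in limma) and -0.66 ± 0.18 for Cldn1 (0.0446 in limma). The Cldn1 call was lost under 3 of the other settings and without any of 5 of the 6 libraries, with a limma adjusted p of up to 0.198. In total exons Gjb2 had 202, 182 and 168 at 8 h, against 365.5, 314 and 417 at 4 h, a change of -0.98 ± 0.25 (limma adjusted p = 0.0152). That call was lost without the third 4 h library (limma adjusted p = 0.0556) or the third 8 h library (limma adjusted p = 0.0775). Tinagl1 (-0.85 ± 0.14), Cldn1 (-0.69 ± 0.12) and Klhdc8a (-0.61 ± 0.10) fell in total exons as well (limma adjusted p at most 0.000885, 4.89% of all genes lower). The 561 genes behind that share numbered 317 with no further scaling, and 225 without the third 8 h library. Whether Gjb2 moved by more than the other 3 genes in this step was not tested.

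From 4 h to 12 h all 4 genes fell in both kinds of RNA. In labelled exons the log2 changes were -1.71 ± 0.11 for Tinagl1, -1.53 ± 0.18 for Cldn1, -1.45 ± 0.15 for Klhdc8a and -1.33 ± 0.27 for Gjb2 (limma adjusted p at most 0.000571, 12.2% of all genes lower). In total exons they were -1.86 ± 0.12 for Cldn1, the 4th largest fall of all genes, -1.74 ± 0.14 for Tinagl1, -1.45 ± 0.25 for Gjb2 and -1.33 ± 0.10 for Klhdc8a (limma adjusted p at most 0.000112, 16% of all genes lower). Without the first 12 h library the change of Gjb2 in total exons was -0.93 (limma adjusted p = 7.57e-05).

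**Figure D3:**
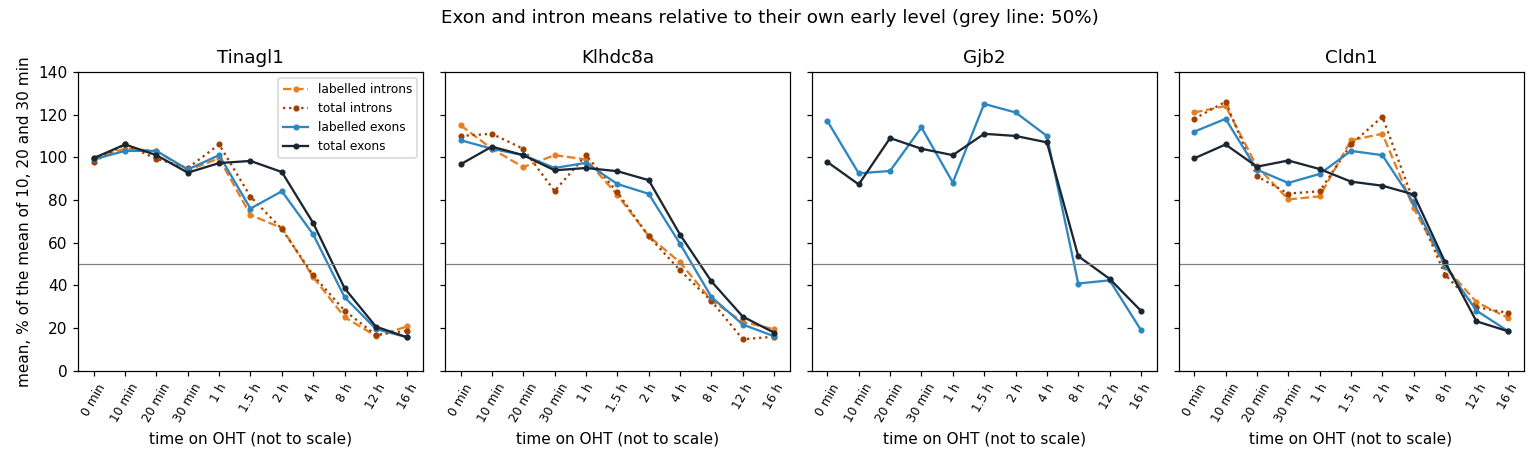
Means of labelled introns, total introns, labelled exons and total exons of each gene (n = 3 libraries per point), as a percentage of the gene's own mean over 10, 20 and 30 min, against time on OHT (not to scale); the grey line is 50% and the sparse introns of Gjb2 are left out. The intron lines of Tinagl1 and Klhdc8a lie below their exon lines at 2 h and 4 h, and the intron lines of Cldn1 dip at 30 min and 1 h.

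Intron reads come largely from RNA that is not yet spliced, and those of Tinagl1 and Klhdc8a were already lower at 2 h. At 12 h the log2 changes in labelled introns were -2.66 ± 0.20 for Tinagl1, -2.22 ± 0.21 for Klhdc8a and -1.95 ± 0.15 for Cldn1 (limma adjusted p at most 1.52e-09, 25.5% of all genes lower). Gjb2 changed by -1.77 ± 0.51 (limma adjusted p = 0.0048), on values of 1.98, 15.4 and 3.00 at 12 h, against 20.1, 19.9 and 16.6 at 10 min. In total introns the changes were -2.89 ± 0.19 for Klhdc8a, the largest fall of all 11459 genes tested, -2.63 ± 0.15 for Tinagl1 and -2.10 ± 0.19 for Cldn1 (limma adjusted p at most 3.3e-10, 21.6% of all genes lower). Gjb2 in total introns did not pass, at -0.71 ± 0.54 (limma adjusted p = 0.305), with scaled values that stayed between 0 and 21.7 over the whole course.

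The earlier intron times were compared after the values were seen. At 2 h Tinagl1 had 236, 256 and 265 in labelled introns, against 343, 372 and 456 at 10 min, a log2 change of -0.62 ± 0.20 (limma adjusted p = 0.013). Without the third 10 min library that call was lost (limma adjusted p = 0.0797). Klhdc8a had 215, 265 and 193 at 2 h, against 358, 417 and 333 at 10 min, a change of -0.72 ± 0.21 (limma adjusted p = 0.00752). The groups of neither gene overlapped, and 19.2% of all genes were lower. Total introns gave -0.69 ± 0.15 for Tinagl1 and -0.86 ± 0.19 for Klhdc8a (limma adjusted p = 0.000679 and 0.000952, 15.4% of all genes lower). In the exons at 2 h the changes of Tinagl1 and Klhdc8a were -0.29 ± 0.11 and -0.33 ± 0.15 in labelled RNA (limma adjusted p = 0.0485 and 0.0987, 9.67% of all genes lower). The first of these passed narrowly, and leaving out any of 5 of the 6 libraries ended the call (limma adjusted p from 0.0547 to 0.183), as did log2(RPKM + 0.1) (0.0519 in limma) and a fit with no variance trend (0.0712 in limma). In total exons they were -0.18 ± 0.14 and -0.23 ± 0.10 (limma adjusted p = 0.413 and 0.117, 9.63% of all genes lower). At 1.5 h, which was not tested, labelled introns and exons lay closer together. They stood at 73% and 76% of the 10 to 30 min mean for Tinagl1, and at 82.4% and 87.5% for Klhdc8a. Total introns and exons at 1.5 h stood at 81.6% and 98.3% for Tinagl1, and at 83.7% and 93.5% for Klhdc8a.

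At 4 h the labelled introns of Tinagl1 were at -1.23 ± 0.20, those of Klhdc8a at -1.02 ± 0.21 and those of Cldn1 at -0.72 ± 0.15 (limma adjusted p at most 0.000279, 22.2% of all genes lower). In total introns the 4 h changes were -1.24 ± 0.15, -1.24 ± 0.19 and -0.68 ± 0.19 for the same genes (limma adjusted p at most 0.00514, 18% of all genes lower). The call for Cldn1 in total introns was lost against the mean of 10, 20 and 30 min (-0.32, limma adjusted p = 0.103). The difference between introns and exons was itself tested within the labelled libraries, as a change of the log2 quotient of intron over exon value. At 2 h it was -0.33 ± 0.17 for Tinagl1 and -0.39 ± 0.16 for Klhdc8a, and neither passed (limma adjusted p = 0.418 and 0.269, with 1.22% of all genes called), although Klhdc8a had an unadjusted limma p of 0.0217. At 4 h it was -0.55 ± 0.17 for Tinagl1 and -0.21 ± 0.16 for Klhdc8a (limma adjusted p = 0.181 and 0.681, 0.637% of all genes called), with an unadjusted limma p of 0.00379 for Tinagl1. Against the mean of 10, 20 and 30 min the value for Tinagl1 at 4 h was -0.54 and passed (limma adjusted p = 0.0248). At 12 h the changes of the quotient were -0.26 ± 0.17 for Tinagl1, 0.04 ± 0.16 for Klhdc8a, -0.56 ± 0.49 for Gjb2 and 0.17 ± 0.17 for Cldn1. None passed (limma adjusted p from 0.483 to 0.931, 2.02% of all genes called), and 0 of the 4 had an unadjusted p under 0.05.

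The time at which a mean last stood at 50% of the 10 to 30 min mean, read off by log-linear interpolation between sampled times and given without an error, orders the 4 genes as follows. Tinagl1 reached it at 3.38 h in labelled introns, 3.44 h in total introns, 5.59 h in labelled exons and 6.24 h in total exons. Klhdc8a reached it at 4.15 h, 3.59 h, 5.28 h and 6.32 h in the same order of tables. Cldn1 reached it at 7.77 h, 7.25 h, 7.88 h and 8.09 h, so that its introns and exons lay close together. Gjb2 reached it at 7.18 h in labelled exons and 9.29 h in total exons. The gaps between samples at these times were 2 h to 4 h wide, and differences of this measure between genes were not tested.

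**Figure D4:**
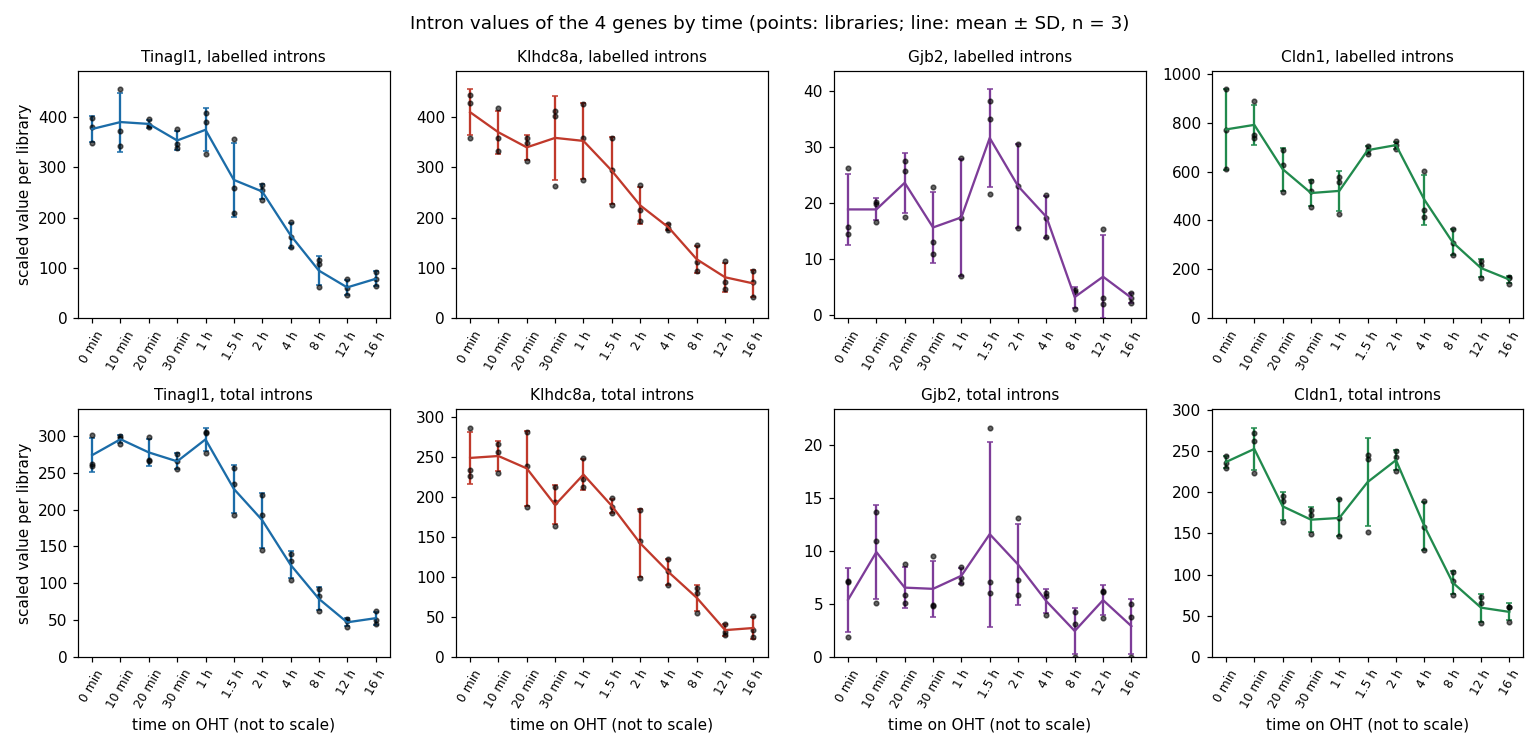
Scaled intron values of the 4 genes (columns) in labelled RNA (top row) and total RNA (bottom row) against time on OHT (not to scale). Points are libraries and lines join means with SD (n = 3); Cldn1 is lower at 20 min to 1 h than at 10 min and higher again at 2 h, and Gjb2 has few intron reads.

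Cldn1 introns showed a second, earlier feature. In labelled introns its means were 791 ± 83.2 at 10 min, 610.0 ± 87.5 at 20 min, 512 ± 53.3 at 30 min, 521 ± 81.3 at 1 h, 687.5 ± 15.7 at 1.5 h and 708 ± 14.6 at 2 h (SD, n = 3). In total introns they were 252.5 ± 25.9, 183 ± 16.9, 167 ± 15.0, 169 ± 22.4, 212 ± 53.1 and 239 ± 12.5 at the same times. The labelled exon means of Cldn1 had a like course, with 463 ± 45.7, 370 ± 26.9, 345 ± 16.8, 362 ± 78.0, 404 ± 31.1 and 396 ± 62.7. Their change at 1 h, given above, did not pass. Its total exon means, 2539 ± 55.0 at 10 min, 2267 ± 90.8 at 1 h and 2080 ± 66.2 at 2 h, did not rise again. The libraries at 0 min averaged 772 ± 164 in labelled and 237 ± 7.35 in total introns, near the 10 min level. At 1 h the libraries had 428, 579 and 556 in labelled introns, against 887, 748 and 737 at 10 min, a log2 change of -0.61 ± 0.15 (limma adjusted p = 0.00135, 21.6% of all genes lower). In total introns they had 146, 169 and 191 at 1 h, against 262, 272 and 223 at 10 min, a change of -0.58 ± 0.19 (limma adjusted p = 0.0156, 17.1% of all genes lower). From the largest fall, Cldn1 ranked 709th of 11497 genes in labelled introns and 743rd of 11459 in total introns. The 5th percentiles of all genes were lower still, at -0.66 and -0.65. The contrast of 1 h with 10 min was also chosen after the values were seen. Against the mean of 10, 20 and 30 min, where 20 and 30 min lie within the dip, neither passed (-0.27 and -0.23, limma adjusted p = 0.0868 and 0.276). In total introns the call was also lost without the second 10 min library (limma adjusted p = 0.0586) or the first 1 h library (limma adjusted p = 0.0811). The intron dip was seen in both kinds of RNA, and its calls rest on the level at 10 min.

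The 4 genes were compared by the shape of their mean log2 course over the 11 times, which share the same libraries. The 11 times include 16 h and 0 min, on which the 4 genes were chosen, so a high r among them follows in part from the choice and is given as a description. In labelled exons Pearson's r was 0.996 between Tinagl1 and Klhdc8a, 0.98 between Cldn1 and Klhdc8a, 0.976 between Cldn1 and Tinagl1, and 0.904 to 0.933 for Gjb2 with the other 3. In total exons the lowest of the 6 values was 0.958, for Gjb2 with Klhdc8a. Among 10021 genes with a mean of at least 50 in labelled exons, the 5 other genes with a course most like the mean of the 4 were Tpm1 (r = 0.996), Cgnl1 (0.995), Pkp1 (0.993), Tns3 (0.992) and Nuak2 (0.991), each over 11 times that again include 16 h and 0 min. Tpm1 encodes a tropomyosin of actin filaments, Cgnl1 a cingulin-like protein of cell junctions, Pkp1 a plakophilin of desmosomes, Tns3 a tensin of focal adhesions and Nuak2 a protein kinase. Their log2 changes in labelled exons at 12 h were smaller in size than those of Tinagl1, Klhdc8a and Cldn1, and those of Nuak2 and Pkp1 were larger than that of Gjb2, with -1.55 for Nuak2, -1.16 for Pkp1, -0.97 for Cgnl1, -0.81 for Tpm1 and -0.67 for Tns3.

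The partners of Tinagl1, Klhdc8a and Cldn1 and the genes of neighbouring structures were counted at 12 h against 10 min, without the 4 genes themselves. Tight junction genes, to which Cldn1 belongs, were mixed. Of 23 tested in labelled exons, 7 were lower (30.4%) and 3 higher, with a median of -0.10, and in total exons 7 were lower and 5 higher. The share of lower genes was near the 23.2% of all genes in labelled and the 30.1% in total exons. The shares of higher genes over all genes were 24.4% and 27.2%. The largest falls in labelled exons were those of Cgnl1 (-0.97 ± 0.10, limma adjusted p = 2.75e-09), of Lsr, which encodes a protein of tricellular contacts (-0.50 ± 0.19, limma adjusted p = 0.0343), and of Tjp1, which encodes the scaffold ZO-1 (-0.50 ± 0.09, limma adjusted p = 1.85e-05). The polarity gene Pard6b (0.53 ± 0.18, limma adjusted p = 0.0163) and the adhesion molecule gene Jam3 (0.21 ± 0.08, limma adjusted p = 0.0368) rose.

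Adherens junction and desmosome genes were lower in 9 of 18 in labelled exons (50.0%), with 0 higher by limma, and in 11 of 18 in total exons, with 2 higher, at medians of -0.33 and -0.41. Over all genes, 23.2% were lower and 24.4% higher in labelled exons, and 30.1% lower and 27.2% higher in total exons. Jup, which encodes plakoglobin, changed by -1.23 ± 0.15 (limma adjusted p = 4.09e-08), Pkp1 by -1.16 ± 0.14 (limma adjusted p = 4.79e-08) and Vcl, which encodes vinculin, by -0.88 ± 0.07 (limma adjusted p = 6.24e-12) in labelled exons.

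Basement membrane genes, to which Tinagl1 belongs, were lower in 17 of 31 in labelled exons (54.8%), with 3 higher, and in 15 of 31 in total exons, with 4 higher, at medians of -0.53 and -0.25. The shares over all genes were 23.2% lower and 24.4% higher in labelled exons, and 30.1% lower and 27.2% higher in total exons. The largest falls in labelled exons were those of Ntn4, a netrin gene with a low level (-1.54 ± 0.41, limma adjusted p = 0.00261), and of the laminin chains Lamb1 (-0.95 ± 0.07, limma adjusted p = 6.56e-12) and Lamb2 (-0.86 ± 0.09, limma adjusted p = 5.28e-09). Smoc1, which encodes a calcium-binding matrix protein, rose, with 1297 ± 194 at 12 h, against 259 ± 5.5 at 10 min, a log2 change of 2.31 ± 0.12 (limma adjusted p = 1.23e-15). Fras1, a gene of the skin basement membrane, rose by 0.67 ± 0.22 (limma adjusted p = 0.0136). Integrin genes that bind matrix ligands were lower in 10 of 19 in labelled exons, with 0 higher by limma, and in 12 of 19 in total exons, with 1 higher, at medians of -0.48 and -0.55. The shares over all genes are again 23.2% lower and 24.4% higher in labelled exons, and 30.1% and 27.2% in total exons. Itga3, a laminin receptor subunit gene, changed by -1.31 ± 0.07 (limma adjusted p = 9.21e-16) and Itgb3 by -1.15 ± 0.16 (limma adjusted p = 3.16e-07) in labelled exons. Itga8 changed there by -1.30 ± 0.45 (limma adjusted p = 0.0175), at a low level of 5.82 at 12 h, against 15.4 at 10 min.

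Kelch repeat genes, to which Klhdc8a belongs, showed no shared direction. Of 43 others, 8 were lower (18.6%) and 12 higher in labelled exons, and 9 were lower and 14 higher in total exons, at medians of 0.04 and 0.06. Over all genes, 23.2% were lower and 24.4% higher in labelled exons, and 30.1% lower and 27.2% higher in total exons. Klhl24 (-0.99 ± 0.16, limma adjusted p = 5.99e-06), Hcfc2 (-0.90 ± 0.12, limma adjusted p = 2.92e-07) and Klhl18 (-0.54 ± 0.14, limma adjusted p = 0.00138) had the largest falls, and Klhl8 (0.73 ± 0.19, limma adjusted p = 0.00178) and Kbtbd8 (0.68 ± 0.13, limma adjusted p = 4.5e-05) the largest rises. The median over all genes tested was 0.01 in labelled and -0.02 in total exons. Each count of 0 higher genes given for these lists was also 0 at an unadjusted limma p under 0.05. The fall of Klhdc8a by 2.25 on the log2 scale was larger than that of any of these 43 genes. Klhdc8a was chosen for its large fall at 16 h, so this position follows in part from the choice.

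**Figure D5:**
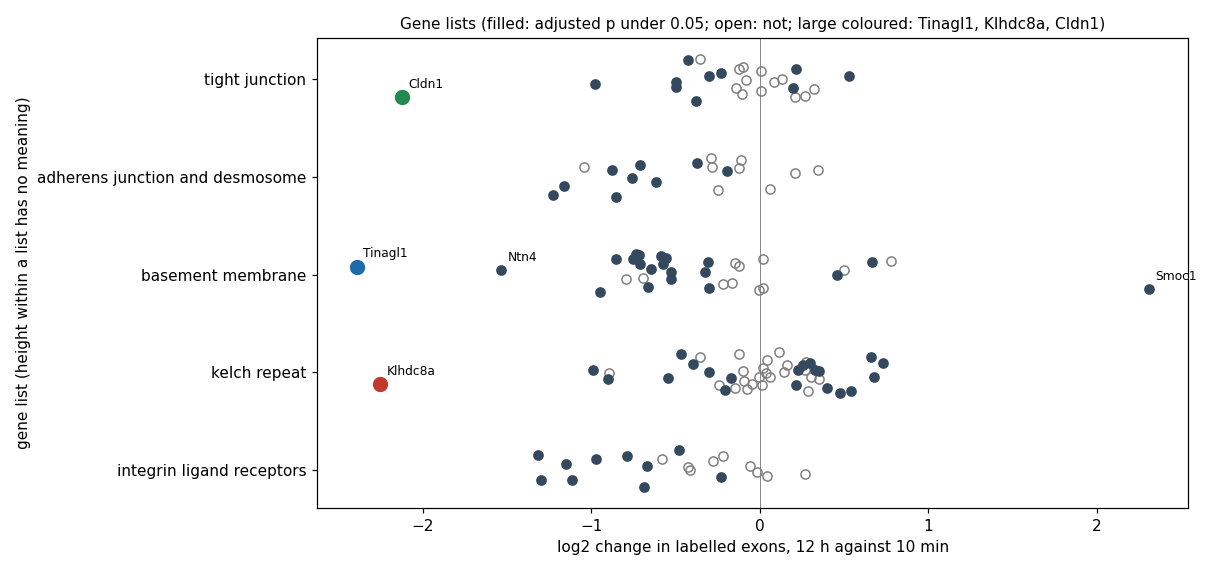
Log2 change in labelled exons at 12 h against 10 min for the genes of 5 lists (rows), each point a gene; filled points passed a limma adjusted p under 0.05, open ones did not, and large coloured points are Tinagl1, Klhdc8a and Cldn1. Tinagl1, Klhdc8a and Cldn1 each lie below every other gene of their list. They were chosen for large falls at 16 h, so this position follows in part from the choice.

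Markers of cell types were read in total exons as summed RPKM. Of 10 fibroblast markers 7 were in the tables, and their sum was 1730 to 1810 RPKM over the 12 h libraries, against 2520 to 2830 RPKM over the 10 min libraries. Of the 7, 5 were lower at 12 h, among them Pdgfra at -1.37 and Col1a2 at -0.85, with 0 higher by limma at an adjusted or unadjusted p under 0.05. Over all genes in total exons, 30.1% were lower and 27.2% higher. Most of the fibroblast sum was Vim, with 1390 RPKM at 12 h, against 2180 RPKM at 10 min (-0.66). The other log2 changes were -1.13 for Pdgfrb, -0.42 for Col1a1, -0.29 for Col3a1 and -0.14 for Fn1. The fibroblast sum moved in the same direction as the 4 genes, and its part in their fall was not tested. Cldn1 and Gjb2 are best known from epithelia. Of 12 markers of keratinocytes and other epithelium only Krt7, Trp63 and Grhl2 were in the tables, so the rest could not be read. These 3 summed to 0.289 to 0.482 RPKM at 12 h, against 0.429 to 0.554 RPKM at 10 min, less than Gjb2 alone at 10 min. Sums were also read for endothelial (1 gene, at most 0.111 RPKM), leukocyte (4 genes, 3.74 to 3.9 RPKM at 12 h, against 2.73 to 3.64 RPKM at 10 min) and adipocyte markers (Fabp4, 3.78 to 4.02 RPKM at 12 h, against 2.47 to 3.03 RPKM at 10 min). Most of the leukocyte sum was Cd68, with 2.73 RPKM at 12 h, against 2.68 RPKM at 10 min. Csf1r had 0.965 against 0.5 RPKM, Ptprc 0.0952 against 0.0286 RPKM and Itgam 0.0239 against 0.0235 RPKM. The leukocyte and adipocyte sums were above the mean of Gjb2 at 10 min (2.01 RPKM). At 12 h they were above the means of Cldn1 (2.78 RPKM), Klhdc8a (2.59 RPKM) and Gjb2 (0.995 RPKM). By limma, 2 of the 4 leukocyte markers and Fabp4 were higher at 12 h, where 27.2% of all genes were higher. Of the 3 epithelial markers 1 was lower and 1 higher, with 30.1% of all genes lower. The part of these markers in the results was not tested. None of the skeletal muscle list was analysed here. The summed values per library ranged from 11619390 to 14118146 in labelled exons, 31279341 to 39258946 in labelled introns, 46498084 to 52716124 in total exons and 10649913 to 13008655 in total introns. No library was a copy of another.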

How the data were processed

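The authors sequenced 4sU-labelled and total RNA, and deposited 4 tables of whole numbers named counts (exons and introns of each RNA) and 4 of RPKM. Reads were aligned with TopHat2 (version 2.0.8) to mm9, per the submitters' processing notes, and total RNA was depleted of ribosomal RNA, per the labels' protocols. In 13 of 66 libraries the low whole numbers have gaps, so these deposited values had been rescaled and were handled as a score; their depth is unknown, and the counting error of low values such as Gjb2 introns cannot be given. The RPKM values deposited by the authors are 1 constant multiple of these per gene, within 1%. Each table was scaled on its own by trimmed means of log ratios (30% of ratios and 5% of levels trimmed at each end). Genes had to reach 10 in 3 or more libraries. limma (3.58.1, R 4.3.3, variance trend) was fitted to log2(scaled value + 1), which understates changes of low genes, over the 27 libraries of a table at 10 min to 12 h; the intron over exon quotient used a pseudocount of 2. P-values are two-sided, with Benjamini-Hochberg adjustment over all genes tested and a threshold of 0.05. The members and lists were chosen with earlier results of these data known. Other genes are named by rule: the 3 next largest falls at 16 h per exon table, the 5 most similar courses, and per list up to 3 falls and 2 rises that passed, largest first; 1 of these falls and 1 list are not reported here. Alternatives were other scalings, pseudocounts of 0.5 and 5, log2(RPKM + 0.1), no filter, all 11 times in the fit, the mean of 10, 20 and 30 min as baseline, a replicate block, no variance trend and leaving out each library. The fit was tested on simulated data.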

Additional observations from a re-analysis of the deposited data

How the results depend on the processing

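Of the 37 changes of the 4 genes that passed in the comparisons laid out at first, 34 passed under every alternative run; the exceptions were Cldn1 at 4 h in labelled and in total exons and Gjb2 at 8 h in total exons, named above. Of 21 that passed in contrasts added after the values were seen, 14 did. In the comparisons laid out at first, the counts of all genes stayed within 1.5 times except as follows. For the intron over exon quotient at 12 h, 231 genes were called, against 384 with scaling by library sums, 107 with no further scaling, 354 with log2(RPKM + 0.1) and 2257 against the mean of 10, 20 and 30 min, and 91 to 245 when a library was left out. For labelled against total RNA, 102 genes were called, against 959 with the mean of 10, 20 and 30 min, and 37 to 166 when a library was left out. At 1 h the genes that fell numbered 882 in labelled and 368 in total exons, and 555 to 731 and 181 to 341 when a library was left out. Counts in the added contrasts moved as well. From 4 h to 8 h, the 180 genes lower in labelled exons numbered 69 with no further scaling, 115 with no variance trend and 75 to 153 when a library was left out, and the 561 in total exons 317 with no further scaling, 877 with a replicate block and 225 to 522 when a library was left out. The 2487 genes lower in labelled introns at 1 h numbered 1651 against the mean of 10, 20 and 30 min. For the quotient, the 140 genes called at 2 h numbered 50 with no further scaling, 93 with log2(RPKM + 0.1), 413 against that mean and 48 to 129 when a library was left out, and the 73 at 4 h numbered 23 with no further scaling, 559 against that mean and 25 to 48 when a library was left out. The cause was not tested.

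Values that changed sign were all uncalled. Against the mean of 10, 20 and 30 min, Tinagl1 in labelled exons at 1 h was 0.012. With log2(RPKM + 0.1), Tinagl1 was 0.023 for labelled against total RNA, and the quotient at 12 h was 0.20 for Tinagl1 and 0.17 for Gjb2. With a library left out, labelled exons at 1 h spanned -0.12 to 0.076 for Tinagl1, -0.24 to 0.039 for Klhdc8a and -0.36 to 0.21 for Gjb2, and Gjb2 at 4 h -0.053 to 0.51. Tinagl1 in total exons at 1 h spanned -0.22 to 0.00014. Labelled against total RNA spanned -0.16 to 0.053 for Tinagl1, -0.21 to 0.33 for Cldn1 and -0.38 to 0.40 for Gjb2, and the quotient at 12 h -0.19 to 0.17 for Klhdc8a.

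Libraries that share a replicate number did not all deviate together by more than a correlation of 0.1: their correlations ran from -0.2 to 0.191. In total exons at 4, 8 and 12 h against 10 min all were above 0, from 0.02 to 0.182. The same held in total introns at 12 h against 10 min, from 0.0545 to 0.0984. Over the tables, 23 of 60 later libraries correlated best with their own number, each out of 3 earlier libraries. With a replicate block, Tinagl1 in labelled exons at 12 h stayed at -2.39 (limma adjusted p = 8.05e-18), genes that fell there numbered 2775 against 2667 without it, those lower in total exons from 4 h to 8 h 877 against 561, and Klhdc8a at 2 h passed (-0.33, limma adjusted p = 0.0338), as it did with no further scaling (-0.37, limma adjusted p = 0.0421). Scaling by library sums moved the median of all genes to 0.11 in labelled introns at 12 h, and to less than 0.1 from 0 in the other contrasts.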
